A study of Arabidopsis thaliana with 2 samples.

Results

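The chloroplast genome of a plant encodes the core of the photosynthetic machinery: the reaction centres of photosystems I and II, parts of the cytochrome b6f complex and of the plastid ATP synthase, and rbcL, the large subunit of the carbon-fixing enzyme rubisco. The other subunits and the light-harvesting antenna are encoded in the nucleus. Most plastid genes lie in groups that are transcribed together from 1 strand (operons) and then cut into smaller RNAs. In a leaf, the mesophyll carries most of the photosynthesis, while epidermal pavement cells and trichomes, the single-celled leaf hairs, hold few and small chloroplasts.

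The genes described here are those of the Arabidopsis plastid genome whose symbol starts with psa (photosystem I), psb (photosystem II), pet (cytochrome b6f) or atp (ATP synthase) followed by a capital letter, and rbcL. RefSeq's table of assembly TAIR10.1 lists 33 such genes, and each of the 33 had exactly 1 probe set naming that gene alone, out of 13356 genes measured. They comprised 5 genes of photosystem I, 15 of photosystem II, 6 each of cytochrome b6f and ATP synthase, and rbcL. The study measured expression on 1 Affymetrix array of trichome sap and 1 of pavement cell sap, both taken with microcapillaries from leaves of 5-week-old plants of the wild-type accession Columbia-0, grown with long days and given no treatment named in the labels. The 2 groups differ in the cell type sampled, and the number of cells or plants behind each array is not given in the sources used here. With 1 array per group, no difference below has a replicate check and no p-value was computed.

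Values are the deposited log2 signals, and a difference is trichome minus pavement on that scale. A reading at or under 2.58, the highest reading among 27 control probe sets for Bacillus transcripts, is called background. A fold against a background reading was computed from 2.58 and is written "at least". A gene was counted as higher on 1 array when the difference reached 2-fold and the brighter reading reached 2.05, the median of all readings. Levels of different probe sets are not comparable, because each probe set binds its target with its own strength, so only differences between the arrays are compared between genes.

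Properties of the arrays bear on every value. All 18 hybridisation control probe sets, for foreign transcripts usually added to a labelled sample, here in amounts not recorded, read lower on the trichome array, with differences from -3.54 to -1.94 and a median of -3.15. The probe sets for the same gene gave differences with a pooled SD of 0.52 over 146 genes, a rough guide to technical error that was not split by level. Of 10 trichome marker genes 5 were measured, and SIM (2.79) was the only 1 above background on the trichome array. TBR, which acts in the cellulose of trichome walls, went the other way, at 2.07 (background) in trichome and 6.83 in pavement, at least 19.0-fold higher in pavement. Of 8 epidermal markers, ACR4 was measured and read 2.08 in trichome and 1.68 in pavement, both background. The measured markers thus do not bear out the cell types named in the labels. The amplification kit named in the labels copies RNA from poly(A) tails, which plastid mRNAs mostly lack or carry only in short form. The part of this in the values was not tested. Fewer chloroplasts per sample and less RNA per chloroplast cannot be told apart.

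Plastid photosynthesis transcripts read higher in pavement sap. Of the 33 genes, 23 were 2-fold or more higher on the pavement array, where 5.08% of all genes were. None was 2-fold or more higher on the trichome array, where 0.726% of all genes were. At 4-fold, 16 of the 33 were higher in pavement, against 2.27% of all genes. The median difference over the 33 genes was -1.77, with quartiles of -4.62 and -0.80, and that over all genes was 0.02. Raising background readings to 2.58, so that differences become bounds, left 20 of the 33 higher in pavement, against 4.06% of all genes, and none higher in trichome, against 0.322%. These figures depend on the scaling between the arrays. Centred on the hybridisation controls, 12 of the 33 were higher in pavement (0.644% of all genes) and 12 in trichome (59% of all genes). Centring moves every difference upwards by the size of the control median and the median of all genes to 3.17, so the latter include genes that read at background on both arrays. Quantile normalization of the arrays left 15 of the 33 higher in pavement (2.59% of all genes) and none in trichome (2.8%). A lowess correction for mean level left 12 in pavement (2.51%) and 3 in trichome (2.01%). Of all genes called, those higher in trichome made up 12.5% as deposited, 51.9% after quantile normalization, 44.5% after lowess, 32.6% after subtraction of the median of genes of like level and 98.9% after centring on the controls.

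Detection differed as well. On the pavement array 25 of the 33 genes were above background, against 15.9% of all genes, and on the trichome array 12 were, against 12.2% of all genes. These 12 were psaB, psaJ, psbA, psbF, psbI, psbL, psbM, psbZ, petA, petB, atpE and rbcL. Every complex and rubisco thus had a gene above background in trichome sap, the ATP synthase through atpE alone. In trichome psbF (2.65), psbL (2.68) and rbcL (2.76) were only just above background. All 12 were also above background in pavement. A further 13 genes were above background in pavement only, and 8 on neither array. No gene was above background in trichome alone.

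**Figure D1:**
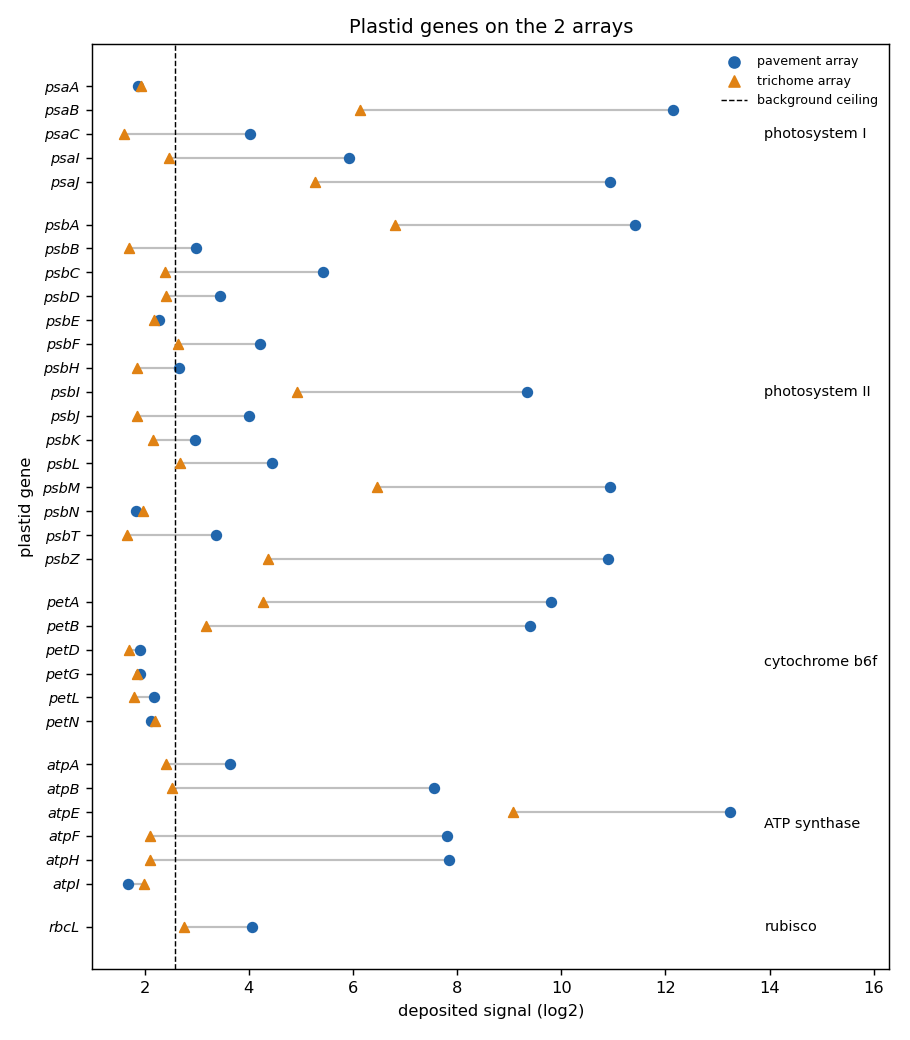
Deposited log2 signal of each of the 33 plastid genes on the pavement array (circles) and the trichome array (triangles), grouped by complex, with 1 array per point and the background ceiling of 2.58 as a dashed line. In 25 genes the pavement reading lies to the right of the line, and in 12 of them the trichome reading does too.

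Photosystem I passes electrons from plastocyanin to ferredoxin, and psaA and psaB encode the paired core proteins that bind its reaction-centre chlorophyll. psaB read 6.14 in trichome and 12.2 in pavement, 64.6-fold higher in pavement. psaA read 1.94 and 1.88, background on both arrays. The core pair was therefore seen through psaB alone. psaC, the iron-sulfur protein at the electron-accepting side, read 1.61 in trichome and 4.02 in pavement, at least 2.72-fold higher in pavement. For the small membrane subunits, psaI read 2.47 and 5.92, at least 10.1-fold higher in pavement, and psaJ read 5.28 and 10.9, 50.4-fold higher. Of the 5 genes 4 were higher in pavement (5.08% of all genes), with a median difference of -3.45.

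Photosystem II splits water, and its reaction centre is the pair of proteins D1 (psbA) and D2 (psbD), flanked by the inner antenna proteins CP47 (psbB) and CP43 (psbC). psbA read 6.81 in trichome and 11.4 in pavement, 24.5-fold higher in pavement. psbD read 2.41 and 3.44, at least 1.82-fold higher. Its difference of -1.03 was the closest to the 2-fold limit among the genes counted, and psbH (-0.81) and psbK (-0.80) lay just outside it. psbC read 2.39 and 5.43, at least 7.22-fold higher in pavement. psbB read 1.71 and 2.995, at least 1.33-fold higher, values that other probe sets repeat exactly. The transcripts for the 4 large proteins of this complex thus all read higher in pavement as deposited. For psbB and psbD, however, a 2-fold difference was not shown once the trichome reading was taken as a bound.

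The alpha and beta chains of cytochrome b559 are encoded by psbE and psbF. psbE read 2.18 in trichome and 2.27 in pavement, background in each, and psbF read 2.65 and 4.23, 2.98-fold higher in pavement. The small subunits, single-helix or short membrane proteins around this core, gave both large and small differences. psbZ read 4.37 and 10.9, 92.1-fold higher in pavement, the largest of the 33 differences as deposited. psbM read 6.47 and 10.9 (22.2-fold), and psbI read 4.94 and 9.34 (21.1-fold). The difference of psbZ was wider than those of psbM and psbI by over 2 on the log2 scale. The SD of 0.52 between probe sets of a gene was not split by level, so it may not hold for such bright genes. The hybridisation controls, also bright, themselves ran from -3.54 to -1.94.

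Other small subunits differed less. psbL read 2.68 and 4.45, 3.42-fold higher in pavement. psbJ read 1.86 and 4.01 (at least 2.69-fold), and psbT read 1.66 and 3.37 (at least 1.72-fold). Neither psbJ nor psbT was above background in trichome, and the values of psbJ recur exactly at other probe sets. Without the 4 genes with such repeats on both arrays (psbB, psbJ, petD and petG), 21 of 29 genes were higher in pavement (5.08% of all genes). psbH read 1.85 and 2.66, and psbK read 2.16 and 2.96, so both were only just above background in pavement. psbN, which encodes an assembly factor of the photosystem II reaction centre and lies on the strand opposite to its neighbours, was at background on both arrays (1.97 and 1.84). Of the 15 photosystem II genes 11 were higher in pavement (5.08% of all genes) and the median difference was -1.71. With background readings raised to the ceiling, 8 of the 15 were (4.06% of all genes).

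The cytochrome b6f complex links the photosystems. petA, which encodes cytochrome f, read 4.27 in trichome and 9.80 in pavement, 46.3-fold higher in pavement. petB, for cytochrome b6, read 3.19 and 9.41, 74.7-fold higher. The other 4 genes were at background on both arrays. They were petD, for subunit IV (1.71 and 1.91), and the small subunits petG (1.86 and 1.91), petL (1.801 and 2.18) and petN (2.20 and 2.12). The median difference of the 6 genes, -0.29, therefore mostly described readings without signal.

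The ATP synthase uses the proton gradient across the thylakoid membrane. Of its catalytic head, atpB (beta subunit) read 2.52 in trichome and 7.56 in pavement, at least 31.4-fold higher in pavement, and atpA (alpha subunit) read 2.42 and 3.63, at least 2.07-fold higher. atpE, the epsilon subunit of the stalk, read 9.07 and 13.2, 18.1-fold higher. It was the only 1 of the 6 above background in trichome. In the membrane part, atpF (subunit b) read 2.11 and 7.81, at least 37.5-fold higher in pavement, and atpH (subunit c of the rotor ring) read 2.096 and 7.85, at least 38.6-fold higher. atpI (subunit a) was at background on both arrays (1.99 and 1.69). Of the 6 genes 5 were higher in pavement (5.08% of all genes), with a median difference of -4.60.

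rbcL read 2.76 in trichome and 4.07 in pavement, 2.47-fold higher in pavement. This was the smallest difference among the 12 genes above background on both arrays, whose differences ran from -6.53 (psbZ) to -1.30 (rbcL) with a median of -4.55. In these 12 the difference fell into a low range shared by rbcL, psbF and psbL (-1.30 to -1.77) and a high range from atpE (-4.17) to psbZ, with none between. In pavement rbcL, psbF and psbL read 4.07, 4.23 and 4.45, too near the ceiling of 2.58 for a difference of the high range to show. The others read 9.34 (psbI) or more there, so the gap between the ranges follows the pavement level. Across the 33 genes the trichome and pavement levels went together (Pearson's r = 0.86, Spearman's rho = 0.79), which is a description only, since both arrays carry the same probes.

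The genes of 1 operon did not read alike. The 33 genes fall into 9 transcription units with more than 1 of these genes, holding 27 genes, and 6 genes that stand alone or among genes of other kinds. As deposited, every listed gene was higher in pavement by 2-fold or more in 3 of the 9 units: atpB-atpE, psaI-petA and psbD-psbC-psbZ. For psbD a 2-fold difference was not shown against background (at least 1.82-fold). In the other 6 units genes counted as higher stood beside genes that were not. Of the genes not counted, only psbH and psbK read above background, in pavement alone, so most of these contrasts set a measured gene beside an unmeasured one. In psaA-psaB the differences were 0.06 and -6.01, and rps14, the ribosomal protein gene that follows psaB, was at background (1.97 and 2.25).

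In the unit psbB-psbT-psbH-petB-petD the differences in that order were -1.29, -1.71, -0.81, -6.22 and -0.20. petD was at background on both arrays. psbB, psbT and psbH were at background in trichome, and set against the ceiling their differences were -0.41, -0.79 and -0.08. Of this unit only petB was above background on both arrays. In atpI-atpH-atpF-atpA the differences were 0.30, -5.76, -5.70 and -1.21, of which that of atpI compares background readings and the others are set against background in trichome. In psbD-psbC-psbZ they were -1.03, -3.04 and -6.53, and psbD and psbC have overlapping reading frames. Both psbD and psbC were at background in trichome, and set against the ceiling their differences were -0.86 and -2.85. In petL-petG-psaJ the differences were -0.38, -0.05 and -5.66, those of petL and petG between background readings. The genes next to psaJ, rpl33 and rps18, had differences of -4.23 and -0.72.

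Among the longer units psbE-psbF-psbL-psbJ had the differences closest together, at -0.09, -1.58, -1.77 and -2.15. psbE was at background on both arrays and psbJ in trichome. No gene of this unit read above 4.45 in pavement, so a wide difference could not show in any of them. In psbK-psbI the differences were -0.80 and -4.40. In psaI-petA they were -3.45 and -5.53, and the genes that lie between them, ycf4 and cemA, had -1.005 and -0.49. psaC, which lies in a unit of NDH genes, had -2.41, with its neighbours ndhD at -4.07 and ndhE at -0.10. atpB and atpE had -5.03 and -4.17, both large. psbK, psaI, psaC and atpB were at background in trichome. Set against the ceiling their differences were -0.38, -3.34, -1.44 and -4.97. Where a gene read at background on both arrays, its difference says nothing of the transcript, and whether its probe set can detect the processed RNA was not tested.

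**Figure D2:**
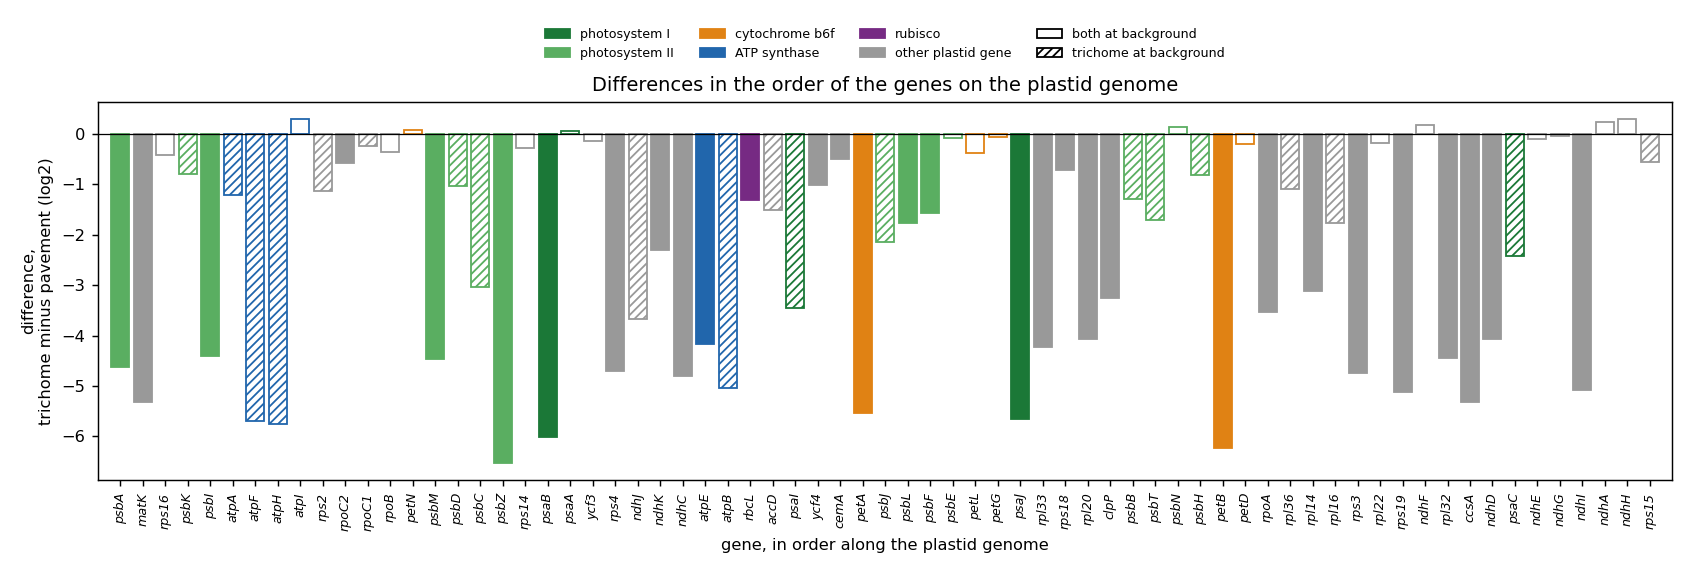
Difference between the arrays (log2, trichome minus pavement, 1 array each) for all 69 plastid genes measured, in their order along the plastid genome, coloured by complex; hatched bars are at background in trichome and open bars on both arrays. Bars near 0 stand directly beside long ones, as for psaA (0.06) beside psaB (-6.01).

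Gene length was compared as a property that the choice of genes did not use. Of the 18 genes under 300 bases 11 were higher in pavement, with a median difference of -1.74, and of the 15 longer genes 12 were, with a median of -3.04. Of all genes 5.08% were, and the share among all genes of like length was not counted. The lengths are those of the genes in RefSeq's table, and RNA lengths were not compared. The lengths ran from 90 bases (petN) to 2253 (psaA). Both of these genes were at background.

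The difference between the arrays grew with brightness for genes at large, so the plastid genes were also set beside genes of like mean level. From a mean level of 8 to 12 the 5 plastid photosynthesis genes had a median difference of -4.62, and the 13 genes outside the plastid genome had -4.04. From 7 to 8 the medians were -5.53 over 3 genes and -4.11 over 17. From 4 to 5 they were -5.70 over 3 genes (psaI, atpF and atpH) and -1.55 over 202. From 3 to 4 they were -1.58 over 5 genes and -0.54 over 596. In the lowest band, from 0 to 3, they were -0.38 over 15 genes and 0.03 over 12342. Of the 33 genes, 29 had a lower difference than the median of the genes outside the plastid genome in their band, which splits those genes evenly. The 29 include petD, petG, petL and psbE, which were at background on both arrays. Lower than that median by 1 or more were 17 genes (3.17% of all genes), and none was higher by as much (1.53%). The 17 include psbB, psbD and psbT, whose differences did not reach 2-fold against the background ceiling. Relative to that median atpH and atpF were lowest, at -4.21 and -4.15, and atpE (-0.13), psbI (-0.29), psbM (-0.43) and psbA (-0.58) lay close to it. psaI, atpF and atpH were at background in trichome. Their pavement reading therefore sets both the mean level and the difference, and a wide difference in their band follows from it. A lowess correction turned the sign of atpE, psbA, psbM, psbI and psaB, but its fitted value at the level of atpE was -8.36, where the median of its band was -4.04.

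**Figure D3:**
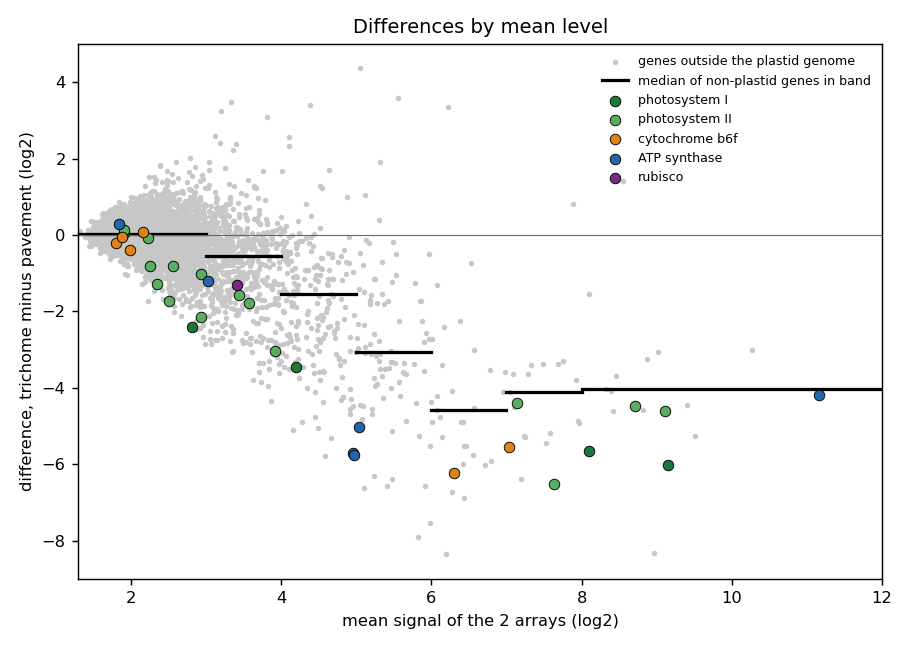
Difference between the arrays (log2, trichome minus pavement) against the mean signal of both arrays (log2) for genes outside the plastid genome (grey) and the 33 plastid genes (coloured by complex), with the median of the grey genes in each band of level as black lines. At mean levels from 8 to 12 all 5 plastid genes lie below the line at -4.04, atpE only just.

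Against the hybridisation controls, 9 of the 12 genes above background on both arrays had a lower difference than any of the 18 control probe sets. They were psbZ, petB, psaB, psaJ, petA, psbA, psbM, psbI and atpE. psbL, psbF and rbcL lay above the control range. Among the genes at background in trichome, the bounds of atpB, atpF and atpH were also below the lowest control difference of -3.54. No control reading was below 6.88, so the shift at lower levels was not measured. Bright genes outside the plastid genome also had medians below the lowest control difference. These were -4.11 at mean levels from 7 to 8 and -4.04 from 8 to 12. The share of all genes below the control range was not counted. Ranked by difference among the 1139 genes above background on both arrays, psbZ stood at place 5, petB at 7 and psaB at 8. psaJ stood at 13, petA at 14 and atpE, the smallest difference of the 9, at 67. Of the 50 lowest differences in that ranking 6 belonged to these plastid genes and 13 to plastid genes of any kind. Among all 1139 genes ranked, 12 were these plastid genes, and plastid genes of any kind made up 2.72%.

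Other plastid genes showed a like pattern. Of the 36 other plastid genes measured, 21 passed 2-fold towards pavement (5.08% of all genes) and none towards trichome (0.726%). Their median difference was -1.33. The plastid ribosomal protein genes (10 of 15 higher in pavement, median -1.77) included rps19 (5.16 in trichome and 10.3 in pavement) and rpl32 (3.93 and 8.38). The genes of the NDH complex, which cycles electrons around photosystem I, were divided. Of these 10 genes 5 were higher in pavement, among them ndhC (7.12 and 11.9), and the other 5 were at background on both arrays. Of 4 RNA polymerase genes, rpoA (7.58 and 11.1, 11.5-fold) was higher in pavement and rpoB, rpoC1 and rpoC2 were not past 2-fold. The difference between these gene groups was not tested.

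Nuclear genes for the same complexes and their antenna were also higher in pavement, although only 10 of the 52 listed were measured. Of these 10, 8 were 2-fold or more higher in pavement, where 5.08% of all genes were, with a median difference of -4.90. PETM of cytochrome b6f (AT2G26500) read 3.71 in trichome and 9.72 in pavement, 64.2-fold higher in pavement. PSBW of photosystem II read 6.88 and 12.1 (38.2-fold), and PSAE-1 of photosystem I read 3.95 and 8.85 (29.9-fold). RCA, which encodes the activase of rubisco, read 3.97 and 8.88 (29.9-fold). A difference of that size could not have shown above background for rbcL, which read 4.07 in pavement. The antenna genes LHCB4.1 and LHCB4.2 were 53.8-fold and 45.7-fold higher.

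PSAN read 2.16 and 5.77 (at least 9.11-fold) and ATPC1, the gamma subunit of the ATP synthase, 3.90 and 5.49 (3.02-fold). PSBY (3.50 and 3.92) and ATPC2 (background on both) were not past 2-fold. The antenna genes and RCA also mark mesophyll, and all 3 measured were above background on both arrays, while no RBCS gene was measured. The part of RNA from mesophyll cells in the plastid values was not tested. The guard cell lineage genes SPCH, MUTE and FAMA, 3 of 5 listed, read 2.003, 2.06 and 1.99 in pavement, all background, and 2.62, 2.96 and 2.87 in trichome. The vascular marker SWEET11 was at background on both arrays.

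**Figure D4:**
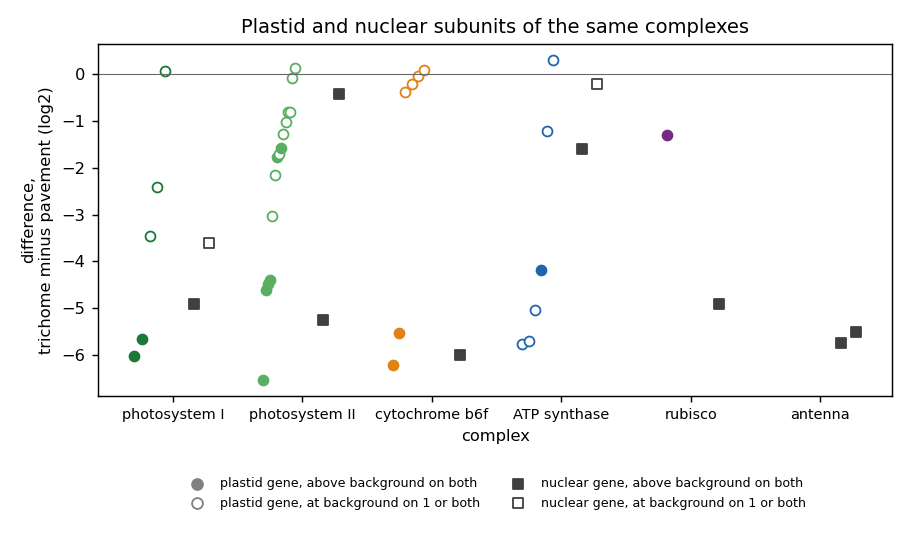
Difference between the arrays (log2, trichome minus pavement, 1 array each) for plastid genes (circles) and nuclear genes (squares) of the same complex or the antenna; filled symbols were above background on both arrays. Filled symbols reach from -6.53 to -0.42, with PSBY the nearest to 0.

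Of the nuclear factors that act on plastid RNA or assemble the complexes, few were measured. Of 8 listed plastid RNA polymerase factors, RPOTMP was measured, at background on both arrays. Of 13 listed RNA and assembly factors 5 were measured, 3 of them above background in pavement and 2 in trichome. Among the 5, 1 was 2-fold or more higher in pavement, where 5.08% of all genes were. This was ATAB2, which acts in the translation of photosystem mRNAs (2.36 in trichome and 3.59 in pavement, at least 2.01-fold). PAM68, an assembly factor of photosystem II, read 3.10 and 3.67, and HCF101, which supplies iron-sulfur clusters to photosystem I, 2.59 and 2.96. CRP1, known in maize to act in the translation of petA and psaC mRNAs, and LPA1, a photosystem II assembly factor, were at background on both arrays.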

How the data were processed

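Trichome sap and pavement cell sap were each measured on 1 Affymetrix array (22810 probe sets). Each deposited value is the log2 signal of a probe set, which the authors obtained by RMA according to the submitters' processing notes; the sources used here give neither its version nor its settings, and that the scale is log2 was read from the values themselves. Probe sets naming exactly 1 gene in the platform annotation of 2016 (13513; 503 name several and 8794 are not listed) were used, with names updated through RefSeq's TAIR10.1 table (13436 matched), and probe sets of a gene were averaged. The annotation states no build, so no coordinates are given. The difference was trichome minus pavement with no further scaling and no test, since each group holds 1 array. Transcription units and lists of nuclear genes were written from general knowledge. Their measured genes, and every plastid gene that fits the rule, are reported; of longer lists, those with the widest and the narrowest differences are named. Members and lists were chosen with earlier results of these data known. Alternatives were a bound at background, lowess, quantile normalization, centring on controls, other thresholds, floors and probe sets, and, added after the data were seen, subtraction of band medians (7 bands) and leaving out genes with repeated values. Work was done in Python 3.11.15 with pandas 2.3.3 and statsmodels 0.14.6. With 1 array per group, the number of arrays sets the precision.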

Additional observations from a re-analysis of the deposited data

Results flagged for a closer look

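Of the 8 plastid probe sets that name a gene present in 2 copies on the plastid genome, and so lie outside the gene comparison, 5 gave signal above the background ceiling of 2.58 on the pavement array. They read 11.63 for rps7 (5.73 in trichome), 9.49 for rpl2 (4.96 in trichome), 4.76 for rps12 (1.69 in trichome, background), 3.60 for rpl23 (2.61 in trichome) and 3.10 for ycf1 (2.08 in trichome, background). The other 3, for ycf2, ndhB and a second rps12 probe set (1.86 in trichome and 2.22 in pavement), were at background on both arrays, so the probe sets of rps12 disagree.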

How the results depend on the processing

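No paired analysis was possible because each group holds 1 array. A median was taken as moved when it changed by at least 0.52, the SD between probe sets of a gene, and a count when it changed by over 1.5 times. With background readings raised to the ceiling or with probe sets without a suffix only, the member count and medians stayed within these limits, the cytochrome b6f median becoming 0 in the former; with other floors the count of 23 was the same. With all plant probe sets as background, 6.35% were higher in pavement. The medians were -1.77 for all 33 genes, -4.60 for ATP synthase, -3.45 for photosystem I, -1.71 for photosystem II and -0.29 for cytochrome b6f. After lowess they were -0.73, -1.76, -0.26 and -0.82 (cytochrome b6f unmoved), with 12 members and 2.51% of all genes higher in pavement. After quantile normalization they were -0.83, -2.14, -1.99 and -0.80, with 15 members and 2.59%. After subtraction of band medians they were -1.04, -1.33, -1.90 and -1.04, with 17 members and 3.17%. Centred on the controls they were 1.37, -1.45, -0.30 and 1.44, with 2.86 for cytochrome b6f, 12 members and 0.644%. At 4-fold 2.27% of all genes were higher in pavement. Without the 4 genes with repeated values, the median was -2.41 over all and -2.96 for cytochrome b6f, because fewer genes at background entered it. Lowess turned the sign of atpE (4.18), psbA (1.77), psbM (1.51), psaB (0.40) and psbI (0.046), where its fitted curve runs below the medians of the bright bands. Centring turned the sign of 16 members, 10 of them counted as higher in pavement: psbD (2.12), atpA (1.94), psbB (1.86), rbcL (1.85), psbF (1.57), psbT (1.44), psbL (1.37), psbJ (1.00), psaC (0.73) and psbC (0.11). The other 6 were psbH, psbK, petL, petD, psbE and petG. Quantile normalization and band medians turned none of the 33. Signal over background limits the genes at background, for which no difference could be measured.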

Other observations

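Several plastid readings are shared to the last deposited digit with other probe sets. The trichome value of petG and psbJ occurs at 39 probe sets and that of psbB and petD at 15. The pavement value of petG and petD occurs at 77 probe sets, and those of psbB and psbJ at 5 each, although these 2 lie above background. Repeats within an array make up 11.7% of all trichome readings and 11.5% of all pavement readings. How such values arose is not given in the sources used here.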
